A study of Arabidopsis thaliana with 4 samples.

Results

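The ERF and DREB genes encode plant transcription factors that bind DNA through a shared AP2 domain. The report covers 60 Arabidopsis loci of this family that lie outside its group VII, given as a list of loci. A locus was measured where a probe set was assigned to that gene alone, which held for 32 of the 60, against 13356 genes so measured on the whole array. For another 27 loci no probe set was assigned in the probe table used here, and for 1, DREB2C, the probe set was shared with another gene. These 28 were not analysed here, among them RRTF1, ERF13, ERF104, ERF53, TDR1, Rap2.6L, the cytokinin response factors CRF7, CRF10, CRF11 and CRF12, and DEAR2 and DEAR3. Each of the 32 measured genes had 1 such probe set.

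RNA came from roots of 3-week-old seedlings of the accession Col-0, which had spent 24 hours in liquid medium with 3% sucrose. The comparison was of 5 hours at 0.1% oxygen, in canisters flushed for 20 minutes and then sealed, with 5 hours in unsealed canisters at normal oxygen, and all canisters were covered in foil. Each group had 2 arrays, each of RNA from a pool of 5 seedlings that had shared a dish. Flushing and sealing came with low oxygen on both of its arrays, so their effects cannot be told apart from that of oxygen.

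Members of the family read ethylene, jasmonate, wounding, cold, drought and other signals at the level of transcription, and many are themselves induced within minutes of a stimulus. The DREB subfamily, groups I to IV, is known for binding the dehydration-responsive element, and the ERF subfamily, groups V to X, for binding the GCC box of ethylene- and pathogen-responsive genes. Group VII, left out here, holds the factors whose stability depends on oxygen and which drive the core response to its lack. Several members of the other groups are known as genes of wounding, cold or oxidative stress.

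All values are log2 RMA expression values, in which a difference of 1 is a 2-fold difference. They ran from 2.95 to 13.99 on the array, and array medians lay between 6.33 and 6.36. Values of different probe sets depend on their probes and are not compared as amounts of transcript. RMA gives no detection call, and 6 was used as a mark below which signal over background is limited. For a gene with a group mean below it, a log2 change is a difference of RMA values, and no fold is given. A gene passed where limma's test, adjusted by the Benjamini-Hochberg method over 22746 probe sets, gave an adjusted p under 0.05.

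Of the 32 measured genes, 12 passed, 11 of them higher at low oxygen and 1 lower. Fewer passed without low oxygen replicate 2, and fewer of all probe sets did so too. The 12 were 37.5% of the measured genes, close to the 33.4% of all probe sets and 30.6% of named genes that passed, so the count as such is no result about these genes. By direction, 34.4% of the measured genes rose, against 15.8% of all probe sets, while 1 of 32 fell, against 17.6% of all probe sets. Rises of at least 1 on the log2 scale were seen in 5 of the 32, which is 15.6%, against 5.16% of all probe sets. The median log2 change of the 32 was 0.18 and that of all probe sets -0.0018. The groups did not overlap for 22 of the 32, or 68.8%, against 64.5% of all probe sets. The loci were chosen with earlier results of these arrays known, and these shares are descriptions without a test.

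**Figure D1:**
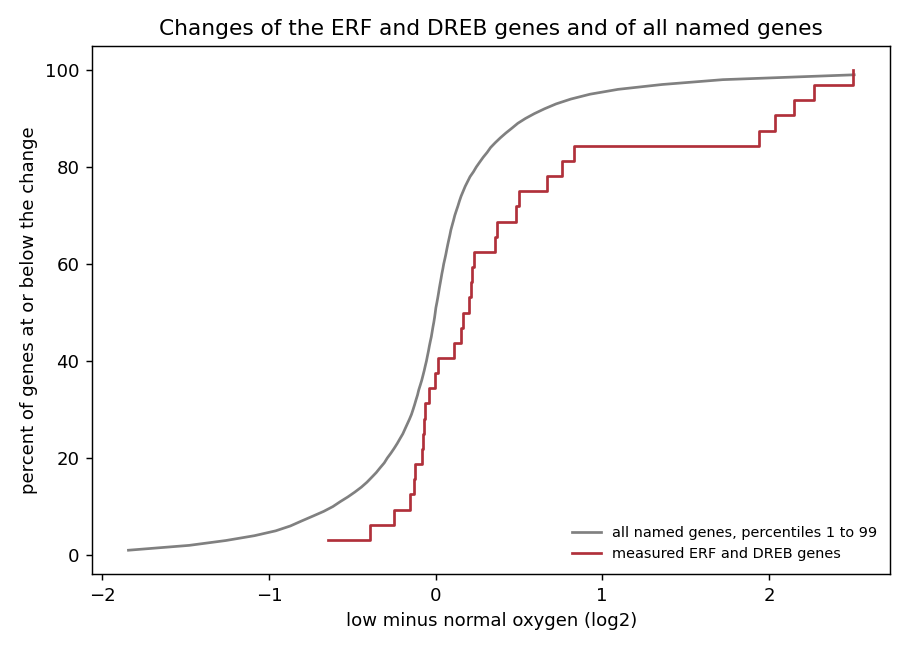
Cumulative share of genes (vertical axis, percent) at or below each log2 change, low minus normal oxygen (horizontal axis), for the 32 measured ERF and DREB genes (red steps) and for all named genes (grey line, percentiles 1 to 99). The steps lie to the right of the grey line over most of the range, with 5 of the 32 above the 95th percentile of all named genes, 0.93, and 0 below the 5th, -0.96.

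The 5 largest differences of RMA values among the genes that rose were in 4 family groups. AT2G33710, of group X, stood at 5.06 and 5.05 on the normal oxygen arrays and at 7.40 and 7.72 on the low oxygen arrays. Both low oxygen values were above both normal oxygen values, with a gap of 2.34 between the groups, while replicates differed by at most 0.32. The change on the log2 scale was 2.50 (SE 0.13, adjusted p = 3.1e-05 in limma), and it was between 2.34 and 2.67 without any single array. Group X includes factors of wounding, redox stress and root regeneration, and AT2G33710 has no name of its own in the tables used here.

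AT5G61590, which carries the name DEWAX and is known as a repressor of cuticular wax synthesis genes in shoots, had the highest values of the 5. It stood at 9.53 and 9.68 at normal oxygen and at 11.88 and 11.87 at low oxygen. The low oxygen arrays were nearly equal, and both lay above the normal oxygen arrays by at least 2.19. The group means were 9.60 ± 0.11 and 11.87 ± 0.01 (SD, n = 2), a 4.83-fold rise (log2 change 2.27, SE 0.10, limma adjusted p = 2.0e-05). It belongs to group IX, best known for factors of jasmonate- and ethylene-dependent defence.

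ORA47, locus AT1G74930, encodes a group II factor known to activate genes of jasmonate synthesis. Its values were 4.73 and 4.80 at normal oxygen and 6.65 and 7.19 at low oxygen. The low oxygen arrays were both higher, and differed from each other by more than the normal oxygen arrays did. The log2 change was 2.15 (SE 0.18, limma adjusted p = 1.9e-04).

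AT1G22810, also of group II, stood at 4.02 and 3.93 at normal oxygen and at 5.57 and 6.45 at low oxygen. The low oxygen arrays were 0.88 apart, the widest spread between replicates among the 32 genes, but both lay above the normal oxygen arrays by at least 1.55. The log2 change was 2.04 (SE 0.26, limma adjusted p = 0.0012), and without a single array it was between 1.60 and 2.48.

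AT3G60490, of group III, was measured above the mark of 6 in both groups. It stood at 6.72 and 7.22 at normal oxygen and at 8.66 and 9.15 at low oxygen, so the groups lay 1.44 apart although replicates differed by about 0.50 in each. The means of 6.97 ± 0.35 and 8.90 ± 0.35 (SD, n = 2) gave a 3.83-fold rise (log2 change 1.94, SE 0.22, limma adjusted p = 6.5e-04). Of the 14 alternative settings tried, all 5 of these genes passed under each that kept every array. Their changes stayed above 0 without any single array. The 5 were chosen by a change of at least 1, so the setting that required it could not remove them.

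**Figure D2:**
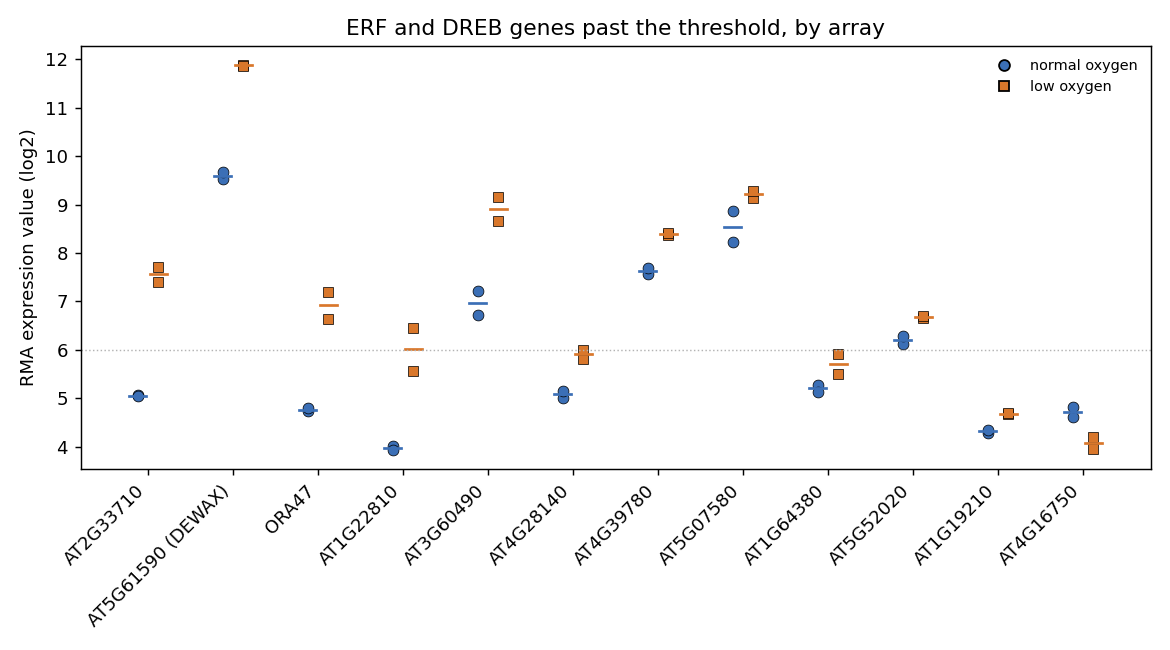
RMA expression value (log2, vertical axis) of the 12 genes that passed, on each normal oxygen array (blue circles) and low oxygen array (orange squares), with group means as short lines and the mark of 6 dotted. For the 5 genes on the left the gap between the groups is 1.44 to 2.34, and AT4G16750 on the right is the only one of the 12 with lower values at low oxygen.

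The remaining 7 genes that passed changed by less than 1 on the log2 scale. In group I, which holds the RAP2.4-type factors, AT4G28140 stood at 5.00 and 5.16 at normal oxygen and at 5.82 and 6.00 at low oxygen (log2 change 0.83, SE 0.11, limma adjusted p = 0.0017). AT4G39780 stood at 7.57 and 7.69 at normal oxygen and at 8.36 and 8.41 at low oxygen, a 1.69-fold rise (adjusted p = 0.0014 in limma). The groups were 0.66 and 0.67 apart in these genes, and replicates differed by at most 0.18. AT1G64380 had means of 5.21 and 5.71, a difference of 0.50 (SE 0.15, limma adjusted p = 0.0444). That call ended without normal oxygen replicate 2 (change 0.43, adjusted p = 0.1235), without low oxygen replicate 2 (0.29, adjusted p = 0.1958) and with the replicate number as a block (adjusted p = 0.0819).

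AT5G07580, of group IX, was at 8.22 and 8.87 at normal oxygen and at 9.15 and 9.28 at low oxygen, a 1.59-fold rise (log2 change 0.67, SE 0.20, limma adjusted p = 0.0448). The distance between its normal oxygen arrays, 0.65, was larger than the gap of 0.28 between the groups. Without normal oxygen replicate 1, the lower array of that group, its change was 0.35 (adjusted p = 0.0990), and the call also ended without low oxygen replicate 1 (0.73, adjusted p = 0.1320), without low oxygen replicate 2 (0.60, adjusted p = 0.2018) and after a second quantile normalization (0.62, adjusted p = 0.0545).

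AT5G52020, of group III, had means of 6.20 and 6.68, a 1.39-fold rise (log2 change 0.48, SE 0.10, limma adjusted p = 0.0123). AT1G19210, of group II, had means of 4.32 and 4.69 (log2 change 0.37, SE 0.10, limma adjusted p = 0.0246). Both calls depended on which arrays were used. AT5G52020 no longer passed without normal oxygen replicate 1 (0.40, adjusted p = 0.0542) or without either low oxygen array (0.49 and 0.47, adjusted p = 0.0601 and 0.0712). AT1G19210 did not pass without any single one of the 4 arrays, with adjusted p between 0.0503 and 0.1040 and changes between 0.33 and 0.41.

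The single fall was that of AT4G16750, of group III, which stood at 4.61 and 4.83 at normal oxygen and at 3.95 and 4.21 at low oxygen. It lay below 6 on every array, and its groups were 0.41 apart (log2 change -0.64, SE 0.13, limma adjusted p = 0.0096). Without low oxygen replicate 1 it did not pass (-0.51, adjusted p = 0.0650).

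**Figure D3:**
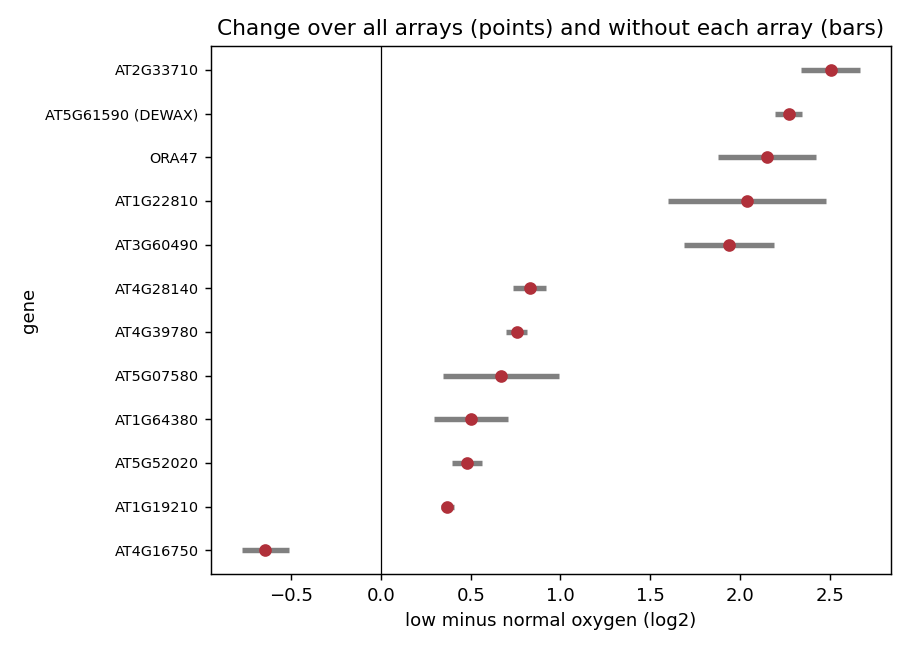
Log2 change, low minus normal oxygen (horizontal axis), of the 12 genes that passed, over all 4 arrays (red points) and as the range without each array in turn (grey bars). No bar crosses 0, and the widest, that of AT1G22810, runs from 1.60 to 2.48.

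By family group, the genes that passed were 3 of 6 measured in group I, 3 of 8 in group II, 3 of 9 in group III, both in group IX and 1 of 2 in group X, against 33.4% of all probe sets. None of the 3 measured genes of group IV, which holds the DREB2 factors of heat and drought, passed, and none of the 2 of group VIII, which includes repressors and meristem factors. Group IV changes ran from -0.07 to 0.20 and those of group VIII were 0.15 and 0.23, and at an unadjusted p under 0.05 the count was also 0 in both groups. Some of these counts moved with 1 array: without low oxygen replicate 1, group I had 5 and group III had 1, and group IX had 1 without normal oxygen replicate 1 or without either low oxygen array. No listed locus of groups V and VI was measured. The counts by group cover the listed loci only, and leave out the further ERF and DREB genes described below. The DREB subfamily had 9 of 26 past the threshold, or 34.6%, near the share of all probe sets, 8 of them higher, with a median log2 change of 0.14, and the ERF subfamily 3 of 6, all higher, with a median of 0.45. The groups are small, and differences between them were not tested.

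Changes differed in size within groups II and III, without a test of the differences. In group II they ran from -0.15 to 2.15, with ORA47 and AT1G22810 high and the next, AT1G19210, at 0.37. Among the listed loci of group III they ran from -0.64 to 1.94. TINY, a group III gene outside the list, had a change of -1.53. TINY2, locus AT5G11590, a group III factor, stood at 4.21 and 4.12 at normal oxygen and at 4.16 and 4.10 at low oxygen (adjusted p = 0.8402, limma).

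**Figure D4:**
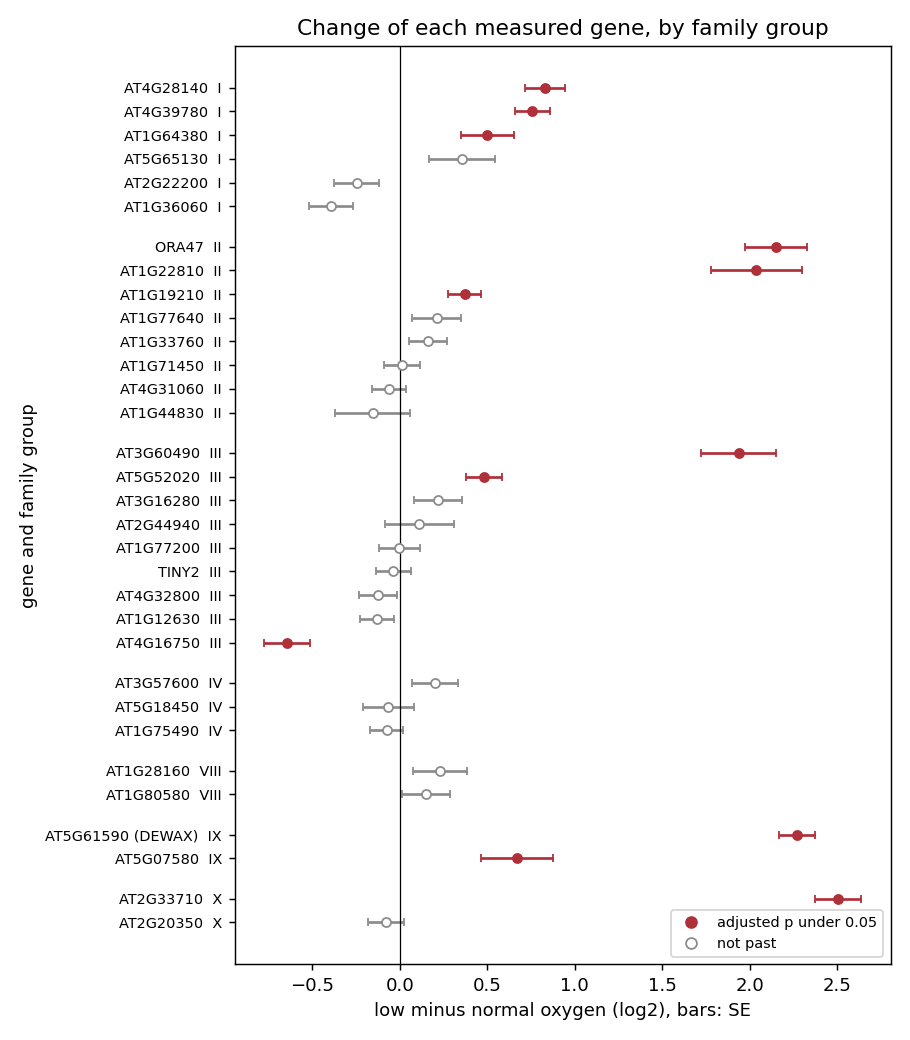
Log2 change, low minus normal oxygen (horizontal axis), of each of the 32 measured genes, listed by family group (Roman numeral) with SE from limma as bars. Filled red points passed the adjusted p of 0.05. The 5 points beyond 1 belong to groups II, III, IX and X, and the points of groups IV and VIII lie between -0.07 and 0.23.

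The other 20 measured genes did not pass. Their changes ran from -0.40 to 0.35, with 9 above 0 and 11 below, and adjusted p from 0.0504 to 0.9926 in limma. The 95% intervals of all 20 changes lay between -0.69 and 0.81, and they differed in width between genes. In 15 of them both group means were below 6. The groups overlapped for 10 of the 20.

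Of the 5 genes with the highest values among these, AT1G36060 of group I came nearest to the threshold, at 7.25 and 7.38 at normal oxygen and 7.05 and 6.79 at low oxygen. Both low oxygen values were the lower (log2 change -0.40, SE 0.12, limma adjusted p = 0.0504), and the gene passed under 4 of the 14 alternatives, among them leaving out low oxygen replicate 1 (-0.53, adjusted p = 0.0432). AT2G44940 was at 7.02 and 7.35 and at 7.03 and 7.57, AT1G77640 at 6.43 and 6.75 and at 6.70 and 6.91, AT1G44830 at 6.14 and 6.81 and at 6.43 and 6.21, in that order of groups. The groups overlapped in all 3. AT1G44830 passed as lower without normal oxygen replicate 1 (-0.49, adjusted p = 0.0387). AT1G12630 was at 6.23 and 6.17 at normal oxygen and at 6.10 and 6.04 at low oxygen (adjusted p = 0.3797, limma). Outside the choice by level, and named after its values were seen, AT5G65130 of group I had 1 low oxygen array at 5.54 and the other 3 arrays between 4.87 and 4.94 (adjusted p = 0.2207, limma). Without low oxygen replicate 1 it passed (0.66, adjusted p = 0.0182).

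Most of these genes gave low values. The normal oxygen mean was below 6 for 22 of the 32 and the low oxygen mean for 19. Among genes with a mean under 6 over the 4 arrays, 6 of 21 passed, or 28.6%, against 16.2% of all probe sets at such values. Among those with a mean of at least 6, 6 of 11 passed, or 54.5%, against 47.7% of all such probe sets. This division was made after the values were seen. Of the 11 genes that rose, 6 started below 6, ORA47, AT2G33710 and AT1G22810 among them.

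The median difference between the low oxygen arrays was 0.24 over the 32 genes and 0.12 over all probe sets, and between the normal oxygen arrays it was 0.12 in both. The low oxygen arrays were the farther apart in 20 of the 32 genes and the nearer in 12, and in 6 of the 12 genes that passed they were the farther apart. This was not tested. Of the 11 genes that rose, 10 were higher on low oxygen replicate 2 than on replicate 1, all but AT5G61590, against 50.2% of all probe sets that rose. Over all 32 genes, 18 were higher on low oxygen replicate 2 than on replicate 1. On the normal oxygen arrays, replicate 2 was the higher in 8 of the 11, AT5G61590 among them, and in 16 of the 32.

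Other genes of the AP2/ERF family and of linked pathways were taken from lists chosen with earlier results of these arrays known, and 25 of the 150 listed had a probe set of their own. No group VII gene was among them, so the oxygen-regulated group was not analysed here. Of 10 further ERF and DREB genes, 2 fell and 0 rose, with 3 at an unadjusted p under 0.05. The gene listed as tny, which is TINY, the group III relative after which TINY2 was named, stood at 8.74 and 8.49 at normal oxygen and at 7.25 and 6.93 at low oxygen. It fell 2.88-fold (log2 change -1.53, SE 0.15, limma adjusted p = 3.6e-04). PUCHI, a group VIII factor of lateral root formation, was low throughout, with means of 4.71 and 4.05 (log2 change -0.66, SE 0.12, limma adjusted p = 0.0055). Of the 8 that did not pass, AT1G63040 passed as higher with an intensity trend (adjusted p = 0.0361) and after median centring (adjusted p = 0.0498), and LEP as lower without normal oxygen replicate 2 (-0.42, adjusted p = 0.0492). The others of the 8 were AT1G01250, HRD, AT5G43410, AT4G18450, AT5G61890 and SHN3. Their log2 changes were, in that order, -0.02, -0.08, 0.09, -0.10, 0.11 and 0.04. Of 3 AP2-type genes 1 passed, the flowering repressor SMZ, with means of 6.20 and 5.13 (adjusted p = 0.0015, limma).

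Of 3 measured genes of ethylene synthesis and signalling, RTE1, which acts with an ethylene receptor, fell from 8.57 and 8.65 to 8.10 and 8.11 (limma adjusted p = 0.0070), and 2 did not pass. Of these, AT1G12010 had a change of 0.40 (limma adjusted p = 0.2107) and passed as higher without normal oxygen replicate 1 (0.73, adjusted p = 0.0045). EIN3, a transcription factor of the ethylene response, had a change of 0.31 (limma adjusted p = 0.0660) and passed as higher after median centring (0.33, adjusted p = 0.0462). Of 13 listed genes known as targets of DREB factors, 4 were measured and 2 rose, against 15.8% of all probe sets. LTI30, a dehydrin, stood at 10.96 and 10.74 at normal oxygen and at 12.12 and 12.18 at low oxygen, a 2.46-fold rise (log2 change 1.30, SE 0.11, limma adjusted p = 2.3e-04). COR15A, a cold-induced chloroplast protein gene, had means of 4.10 and 4.99 (log2 change 0.89, SE 0.18, limma adjusted p = 0.0096). The other 2 targets did not pass. COR47 had means of 12.41 and 12.43 (limma adjusted p = 0.9403) and COR15B of 3.88 and 4.10 (limma adjusted p = 0.1728).

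None of 3 measured jasmonate and defence genes passed, and none did at an unadjusted p under 0.05. PDF1.2, a defensin gene under ERF control, was at 5.20 and 4.99 at normal oxygen and at 6.48 and 4.91 at low oxygen. Only low oxygen replicate 1 was high, and PDF1.2b was also highest there, with 6.36 on that array and 5.21 to 5.59 on the others. Without low oxygen replicate 2 both passed as higher (1.38 and 0.95, adjusted p = 0.0035 and 0.0228), and without replicate 1 their changes were -0.19 and -0.11. The probes of these 2 closely related genes may read each other's transcripts. Of 2 type-A response regulators of cytokinin signalling neither passed. ARR15 had means of 4.81 and 4.69 and RR16 of 4.13 and 3.71 (adjusted p = 0.5272 and 0.0681, limma). With an intensity trend RR16 passed as lower (-0.42, limma adjusted p = 0.0213), and without normal oxygen replicate 1 its change was -0.61. The other lists were small, and their shares of calls were not tested against that of the 32 genes.

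**Figure D5:**
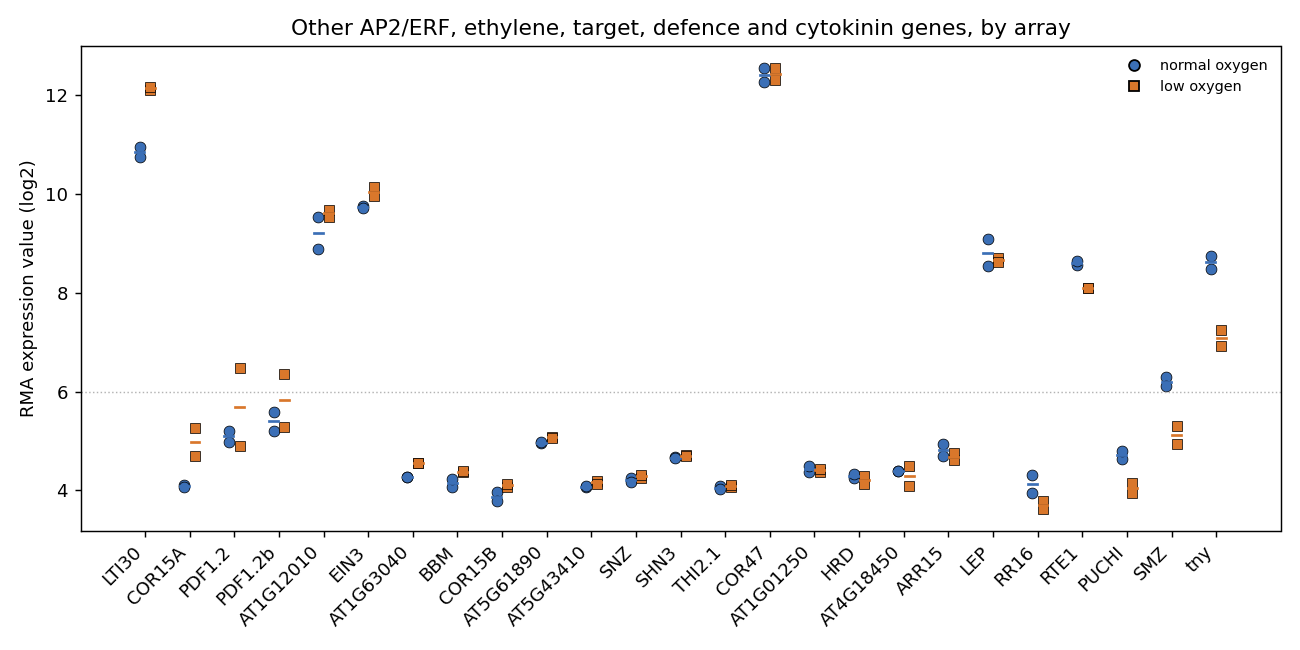
RMA expression value (log2, vertical axis) of the 25 measured genes of the other lists on each normal oxygen array (blue circles) and low oxygen array (orange squares), ordered by their change, with group means as short lines and the mark of 6 dotted. LTI30 on the left rose by 1.30, and tny on the right fell by 1.53. PDF1.2 has 1 low oxygen array at 6.48 and the other at 4.91.

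Marker genes of root and shoot were looked up. All that were measured changed with the treatment, so they cannot serve as a check of the tissue. Of 15 root markers, 2 were measured, the root hair expansins EXPA7 and EXPA18, with a mean level of 10.38 and 10.15 on the normal oxygen arrays and of 7.46 and 7.04 on the low oxygen arrays. Of 12 shoot markers, 2 were measured, RCA and LHCB4.1, with a mean level of 7.71 and 7.44 at normal oxygen and of 8.50 and 8.73 at low oxygen, and both rose. Their part in the rises of the ERF and DREB genes was not tested. In whole roots, a change in the share of a cell type and a change in RNA per cell cannot be told apart. The array's 25S ribosomal RNA probe set, a control, was at 6.54 and 7.26 on the normal oxygen arrays and at 12.94 and 12.74 on the low oxygen arrays, and its part in these results was not tested either. Pearson's r between arrays was at least 0.9958 within a group and at most 0.9489 between groups.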

How the data were processed

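Per the labels' protocols, 7 ug of root RNA per sample was turned into labelled cRNA for 1 of 4 Affymetrix arrays. The authors deposited log2 values. The submitters' processing notes give the tools as RMA and limma, with no version. RMA makes the arrays alike in distribution, which hides any shift common to the whole transcriptome. The table held 22810 probe sets, and 64 controls were left out.

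Genes were matched from the platform's probe table to RefSeq (TAIR10.1) by gene identifier, without coordinates. Start coordinates served only to order RefSeq genes for the look-up of adjacent genes. Family groups come from textbook knowledge and were not checked against a published list. Groups were compared with limma 3.58.1 in R 4.3.3 (lmFit, eBayes, 2-sided), with 2 residual and 4.63 prior degrees of freedom, which also give the 95% intervals. The steps were tested on simulated data. Members and lists were chosen with earlier results of these data known.

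Named with array values were genes past the threshold with a change of at least 1, with means the others past it, and the 5 highest-valued of the rest. Of the other lists, up to 3 genes per direction past the threshold were named, or the 2 highest-valued. TINY2, AT5G65130, AT1G12010, EIN3, the further ERF and DREB genes that did not pass, COR47, COR15B and the array values of smaller changes were added after values were seen. Protein and promoter features that had been planned were not analysed here. Alternatives changed the prior, normalization, block, threshold, level filter, probe sets and arrays. The number of arrays limits the precision.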

Additional observations from a re-analysis of the deposited data

How the results depend on the processing

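The count of 12 genes became 5 with a change of at least 1 required as well, and it was 8 to 10 without each array in turn. Under the other 9 alternatives it was 8 to 13, with 10 higher and 2 lower after a second quantile normalization and 11 and 2 after median centring. One of these, the level filter, tested only 13 of the 32 genes. Of those 9 passed, against 6668 of the 13068 probe sets that the filter kept. None of the 12 changed sign under the alternatives run for it, which were 14 for 8 genes and 13 for the 4 that the level filter left out, and 7 of the 12 passed without each array. By family group, without each array the counts were 2 to 5 in group I (5 without low oxygen replicate 1), 2 to 3 in group II, 1 to 3 in group III (1 without low oxygen replicate 1) and 1 to 2 in group IX (1 without normal oxygen replicate 1 or either low oxygen array). With a change of at least 1 required, they were 0 in group I, 1 in group III and 1 in group IX, and group IX also had 1 at an adjusted p under 0.01 and 1 after a second quantile normalization. Over all 22746 probe sets there were 7593 calls (3594 higher, 3999 lower), and 2385 with a change of at least 1 required. The count over all probe sets was also smaller without each array in turn. Among 13513 1-gene probe sets there were 4119 calls, and with a mean per gene 4098 over 13356 genes. Where an array was left out, the lone array of its group was assumed to vary like the other group. Among the 20 genes that did not pass, the change had another sign under an alternative in 7. Of those named, without each array the change of AT2G44940 ran from -0.16 to 0.38 (-0.06 without normal oxygen replicate 1). That of TINY2 ran from -0.085 to 0.010 and that of AT1G44830 from -0.49 to 0.18. In the other lists, the change of LEP ran from -0.42 to 0.12, of PDF1.2 from -0.19 to 1.38 and of PDF1.2b from -0.11 to 0.95. The cause of these shifts was not tested, beyond the smaller number of arrays. Deviations of same-numbered replicates correlated at 0.0239, so the numbers were not taken as pairs. With the replicate block 11 of the 32 genes and 6939 probe sets passed, and only AT1G64380 lost its call among the 12. In the other lists the calls were 6, and 6 to 8 under the alternatives run for them that kept every array. The level filter and a required change of at least 1 were not among these. Of the 6 genes, 1 rose and 2 fell by at least 1 on the log2 scale.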

Other observations

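The genes next to the 12 that passed were looked up in RefSeq gene order, after the values were seen. Of 24 adjacent protein-coding genes 13 were measured, and 1 of these, AT4G16745 beside AT4G16750, passed, which is 7.69%, against 30.6% of all named genes, a difference that was not tested. It had a log2 change of 0.35 (limma adjusted p = 0.0401), opposite in sign to that of AT4G16750. The other 12 had changes from -0.24 to 0.31. AT5G61590 lies next to a further ERF gene, ERF104, which was not analysed here, and to PFK4, a phosphofructokinase gene, also not analysed here. AT1G22810, with a log2 change of 2.04, lies between AT1G22800 and AT1G22830, with changes of 0.14 and -0.11.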
